A study of Mus musculus with 10 samples.

Results

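The segment described here runs from 50 to 56 Mb on mouse chromosome 6 (build mm9), without the HoxA homeobox gene cluster that lies inside it. Its members were all peaks of 4 deposited ChIP-seq peak lists that start within these limits, leaving out those that start in the HoxA cluster. They were 384 of the 110170 peaks of the 4 lists. The segment was chosen by its peak counts, because the cell line carrying both transgenes has more peaks here than the lines carrying 1 of them. Numbers, shares and strengths of these peaks are therefore given as a description, with no test, and they support nothing beyond themselves.

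The cells were female mouse pre-iPSCs, cells caught part-way between neural stem cells and induced pluripotent stem cells, of strain 129/MF1, with an Oct4-GFP-IRES-puro reporter and grown in serum with LIF. Every line had been stably transfected with PiggyBac transposon vectors driven by the CAG promoter and drug-selected. The line called Nanog + Sin3a cells below carried FLAG-tagged Nanog together with Sin3a, Nanog cells carried FLAG-tagged Nanog with a vector labelled EV, and Sin3a cells carried Sin3a with EV. FLAG antibody was used in Nanog + Sin3a cells and Nanog cells, and Sin3a antibody in Nanog + Sin3a cells and Sin3a cells, with 2 replicates of each of these 4 groups. The labels do not say whether a line was 1 clone, nor into which sites of the genome the transposons inserted.

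Nanog is a homeodomain transcription factor of the pluripotency network and binds enhancers and promoters through its DNA-binding domain. Sin3a does not bind DNA by itself in a sequence-specific way; it is the scaffold of a co-repressor complex that carries the histone deacetylases HDAC1 and HDAC2, and transcription factors bring it to chromatin. A ChIP peak is a stretch where the precipitated fragments outnumber a background estimated from a control, so both the amount of bound protein and the number of DNA copies in the cells enter its height.

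Each group had 1 peak list, so the spread between replicates is not known for any difference between lines, and all intervals below cover counting error only. Neighbouring peaks are not replicates of a condition. A site missing from a list is a site where no peak passed the authors' threshold, which is not the same as a site without binding. The lists carry no measure of DNA copies per cell, so a difference between lines in DNA copies of the segment and a difference in binding cannot be told apart.

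In the segment, Nanog + Sin3a cells had more peaks than the line they were set against, with either antibody. FLAG gave 184 peaks in Nanog + Sin3a cells and 88 in Nanog cells, a ratio of 2.09 (95% exact binomial interval 1.61 to 2.73). Sin3a gave 75 peaks in Nanog + Sin3a cells and 37 in Sin3a cells, a ratio of 2.03 (1.35 to 3.09). On the rest of the genome the same ratios were 0.940 for FLAG and 1.06 for Sin3a. Per megabase of the 5.84 Mb counted, the segment held 31.5 FLAG peaks of Nanog + Sin3a cells and 15.1 of Nanog cells, and 12.8 Sin3a peaks of Nanog + Sin3a cells and 6.34 of Sin3a cells. The segment held 0.507% of the FLAG list of Nanog + Sin3a cells, against 0.229% of that of Nanog cells. It held 0.411% of the Sin3a list of Nanog + Sin3a cells, against 0.216% of that of Sin3a cells.

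On either side of the segment the numbers of peaks lay closer together. In the 6 Mb before the segment FLAG gave 39 peaks in Nanog + Sin3a cells and 52 in Nanog cells, and Sin3a gave 22 in Nanog + Sin3a cells and 23 in Sin3a cells. In the 6 Mb after it FLAG gave 24 and Sin3a 15 in Nanog + Sin3a cells, against 20 FLAG peaks in Nanog cells and 15 Sin3a peaks in Sin3a cells. The HoxA cluster, which was left out of the members, held 12 FLAG and 9 Sin3a peaks in Nanog + Sin3a cells, against 7 FLAG peaks in Nanog cells and 6 Sin3a peaks in Sin3a cells.

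**Figure D1:**
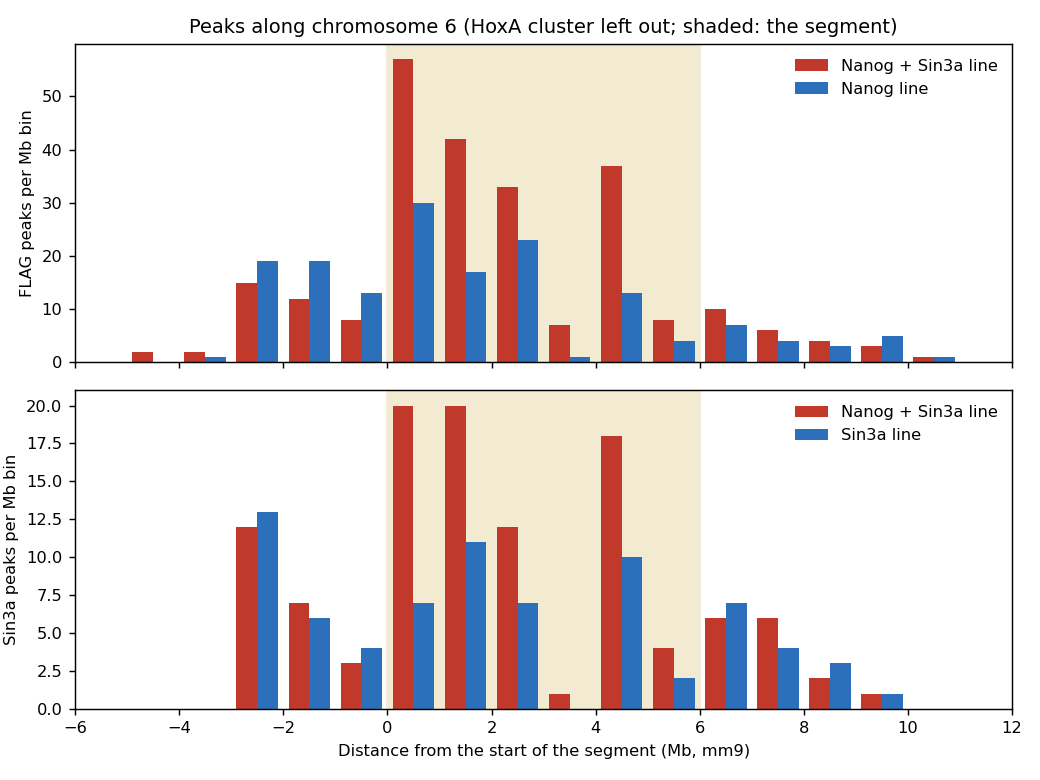
Peaks per 1-Mb bin (y axis) against distance from the segment's start in Mb (x axis), with FLAG lists and Sin3a lists in separate panels and the lines side by side; the HoxA cluster is left out. From 0 to 6 Mb the bars of Nanog + Sin3a cells exceed those of the other line in every bin and with both antibodies, in the 3 bins just before 0 Mb the FLAG bars of Nanog + Sin3a cells are the lower ones, and after 6 Mb the lines differ by a few peaks a bin.

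Within the segment the excess was present in all of its 1-Mb bins, although the number of peaks varied widely between them. From the segment's start, the 6 successive bins held 57, 42, 33, 7, 37 and 8 FLAG peaks of Nanog + Sin3a cells. Nanog cells had 30, 17, 23, 1, 13 and 4 FLAG peaks in the same bins. Sin3a peaks numbered 20, 20, 12, 1, 18 and 4 in Nanog + Sin3a cells, against 7, 11, 7, 0, 10 and 2 in Sin3a cells. The fourth bin was poor in peaks in every list, and the longest distance between neighbouring regions of the segment, 362 kb at chr6:53043341-53405520, lay in it. In the sixth bin no peak was listed in the last 538 kb before the segment's end. In the plot of peaks by distance, the line's excess thus follows the peak-rich bins and is not carried by 1 of them.

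A peak was counted as having a counterpart when a same-antibody peak of the other line overlapped it by 1 base or more. Among the FLAG peaks of Nanog + Sin3a cells, 106 of 184 had no counterpart in Nanog cells, 57.6% (95% Wilson interval 50.4 to 64.5), against 20.3% over that whole list. Among the Sin3a peaks of those cells, 40 of 75 had no counterpart in Sin3a cells, 53.3% (42.2 to 64.2), against 19.6% over that whole list. In the other direction, 7 of the 88 FLAG peaks of Nanog cells had no counterpart in Nanog + Sin3a cells, 7.95% against 25.8% over that whole list. Of the 37 Sin3a peaks of Sin3a cells, 1 had none, 2.70% against 15.8% over that whole list. Nanog + Sin3a cells thus held nearly every peak of the other lines in the segment, and more besides.

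Merging the peaks of the 4 lists by 1 shared base gave 197 regions in the segment, of 45707 in all. Of these, 104 regions, or 52.8% (45.8 to 59.6), held peaks of Nanog + Sin3a cells only, against 16.9% of all merged regions. Another 86 regions, 43.7%, held a peak of Nanog + Sin3a cells together with 1 of another line, against 64.7% of all. The remaining 7 regions, 3.55%, were seen only in Nanog or Sin3a cells, against 18.4% of all.

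Of the 104 added regions 88 were FLAG sites without Sin3a, 84.6%, which is near the 85.9% of added regions over the whole genome. FLAG in Nanog + Sin3a cells alone accounted for 88 regions, 44.7% against 14.5% of all regions. FLAG and Sin3a of those cells together, without a peak of the other lines, accounted for 8 regions, 4.06% against 0.35% of all, and their Sin3a list alone for 8 more, 4.06% against 2.03% of all. Sites occupied in all 4 lists numbered 26, 13.2% against 25.7% of all, and sites with FLAG in both lines but no Sin3a peak numbered 32, 16.2% against 26.9% of all. At 18 sites FLAG was present in both lines and Sin3a in Nanog + Sin3a cells only, 9.14% against 3.65% of all. The mirror image, FLAG in both lines with Sin3a in Sin3a cells only, was found at 0 sites, against 2.87% of all. At 7 sites Sin3a was present in both lines and FLAG in Nanog + Sin3a cells only, 3.55% against 0.424% of all. FLAG peaks of Nanog cells alone made 6 regions, 3.05% against 16% of all. Few regions fell to the other combinations. Sin3a in both lines without FLAG made 2 regions, 1.02% against 1.62% of all, Sin3a in Sin3a cells alone made 1, 0.508% against 1.61% of all, and FLAG in Nanog cells with Sin3a in Nanog + Sin3a cells made 1, 0.508% against 1.01% of all. With 0 regions in the segment stood FLAG in Nanog cells with Sin3a in both lines, 2.18% of all, FLAG in Nanog cells with Sin3a in Sin3a cells, 0.774% of all, and FLAG in Nanog + Sin3a cells with Sin3a in Sin3a cells, 0.241% of all.

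**Figure D2:**
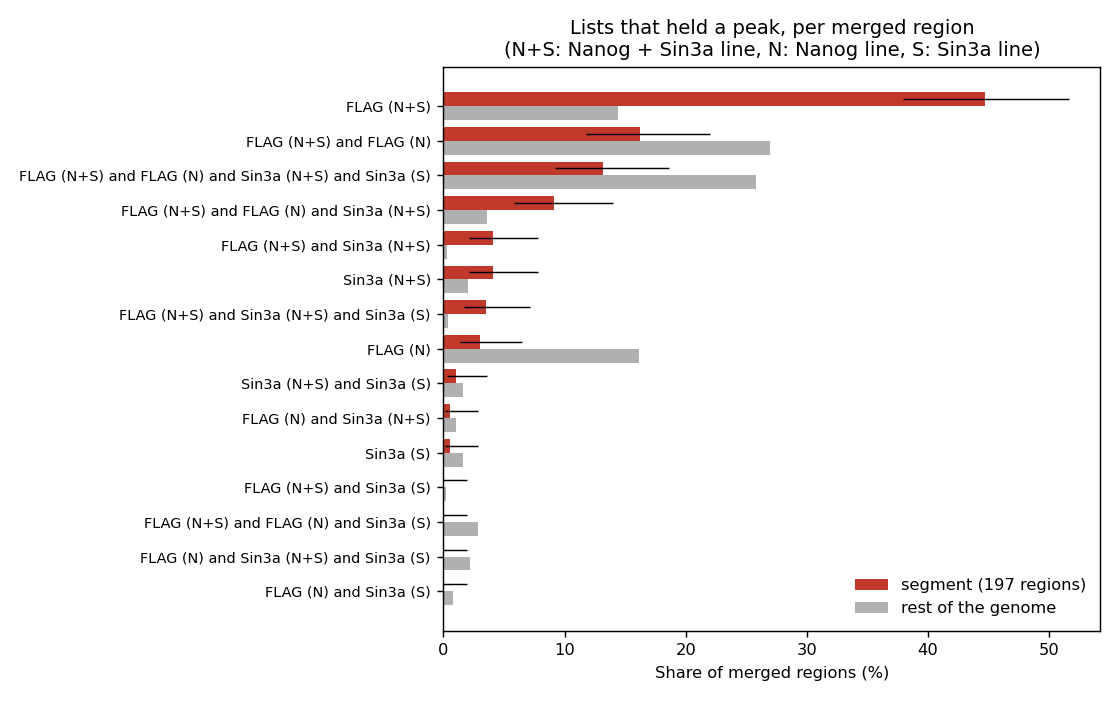
Share of merged regions in percent (x axis) for each combination of the 4 peak lists (y axis), with the segment drawn above the rest of the genome in each row. Regions of the FLAG list of Nanog + Sin3a cells alone make 44.7% of the segment's 197 regions, and regions in all 4 lists make 13.2%.

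Among the 26 sites found in all 4 lists, the strongest by mean −log10 q was chr6:55058313-55058773. Its fold, the authors' ratio of scaled fragments to background at the summit, was 12.3 with FLAG in Nanog + Sin3a cells and 8.69 in Nanog cells. With Sin3a it was 14.9 in Nanog + Sin3a cells and 9.40 in Sin3a cells. Behind the FLAG folds stood 99 fragments over the summit in Nanog + Sin3a cells (95% exact Poisson interval 80.5 to 121) and 56 in Nanog cells (42.3 to 72.7), before scaling.

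Among the 6 leading sites of the class found in every list, which antibody had the higher fold differed from site to site. Whether the FLAG and Sin3a folds ran in parallel over the whole class was not tested. The site at chr6:50062594-50063289, the first FLAG peak of the segment, had FLAG folds of 14.1 in Nanog + Sin3a cells and 11.7 in Nanog cells. Its Sin3a folds were only 3.88 in Nanog + Sin3a cells and 2.83 in Sin3a cells. At chr6:54987563-54989342 the order was the other way round, with FLAG folds of 7.03 in Nanog + Sin3a cells and 4.60 in Nanog cells, and Sin3a folds of 11.7 in Nanog + Sin3a cells and 8.89 in Sin3a cells. The site at chr6:50404777-50407449 was the only one of the 6 leading sites of this class with a lower Sin3a fold in Nanog + Sin3a cells, 6.30, against 7.08 in Sin3a cells; its FLAG fold was 12.6 in Nanog + Sin3a cells and 10.2 in Nanog cells.

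Sites bound by FLAG in both lines with no Sin3a peak included the highest FLAG fold of the segment, at chr6:50630346-50630806. It was 19.2 in Nanog + Sin3a cells, on 150 fragments (127 to 176), and 13.3 in Nanog cells, on 86 fragments (68.8 to 106). At chr6:50372766-50373401 the fold was 11.6 in Nanog + Sin3a cells and 5.52 in Nanog cells, on 90 fragments (72.4 to 111) in Nanog + Sin3a cells and 35 (24.4 to 48.7) in Nanog cells. The intervals of the fragment numbers do not overlap at either site, but scaling differs between the lists and is not part of these intervals. All 6 leading sites of this class had the higher FLAG fold in Nanog + Sin3a cells, with the smallest gap at chr6:50900053-50900505, where it was 7.18 against 6.20 in Nanog cells.

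Among the sites of the FLAG list of Nanog + Sin3a cells alone, 1 stood far above the others. At chr6:54038232-54038674 the fold was 14.9 with a −log10 q of 68.5, on 116 fragments (95.9 to 139), and no peak of Nanog cells or of either Sin3a list shared a base with it. It was the only FLAG peak without counterpart in the segment with a −log10 q of 25 or more, 1 of 106, against 2.1% of such peaks over the whole list. The next highest −log10 q among the 106 was 20.4. The following sites of this class were much weaker, with folds of 7.15 at chr6:52811916-52812430, 6.99 at chr6:50727789-50728410 and 6.15 at chr6:54938148-54938654. Some bordered long distances between neighbouring regions: chr6:53405521-53405886, with a fold of 6.39, ended that of 362 kb, and the strong site at chr6:54038232-54038674 ended another of 230 kb.

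The 8 sites listed with both antibodies in Nanog + Sin3a cells and in no other list had low folds with each. The leading site by mean −log10 q, chr6:54966907-54967385, had a FLAG fold of 5.15 and a Sin3a fold of 4.08 in those cells. The other 5 leading sites of the class had FLAG folds between 3.44 and 5.04 and Sin3a folds between 2.97 and 3.99. Sites of the Sin3a list of those cells alone reached a fold of 5.65 at chr6:50060306-50060574, which is also the first Sin3a peak of the segment. It lies beside chr6:50060681-50061123, a site with Sin3a in both lines and no FLAG peak, where the fold was 5.14 in Nanog + Sin3a cells and 4.31 in Sin3a cells.

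Several sites held a peak with 1 antibody in both lines and a peak with the other antibody in Nanog + Sin3a cells only. At chr6:54501369-54501938 the FLAG fold was 13.8 in Nanog + Sin3a cells and 7.20 in Nanog cells, and a Sin3a peak with a fold of 5.27 was listed in Nanog + Sin3a cells only. At chr6:51495270-51495673 Sin3a had a fold of 7.57 in Nanog + Sin3a cells and 5.29 in Sin3a cells, and a FLAG peak with a fold of 5.25 was listed in Nanog + Sin3a cells only. Few peaks of the lines with 1 transgene had no counterpart. The 7 such FLAG peaks of Nanog cells had a median fold of 4.34, against 3.93 for the 106 FLAG peaks of Nanog + Sin3a cells without counterpart. The strongest of the 7 FLAG peaks of Nanog cells without counterpart, at chr6:52264504-52265152, had a fold of 5.36, and the only such Sin3a peak of Sin3a cells, at chr6:51474011-51474339, had a fold of 4.20.

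Added peaks were lower and narrower than those with a counterpart. FLAG peaks of Nanog + Sin3a cells without counterpart in the segment had a median fold of 3.93, a median width of 289.5 bp and a median of 33 fragments over the summit. Those with a counterpart had a median fold of 6.67, a median width of 566.5 bp and a median of 54 fragments. On the rest of the genome the medians of the fold were 3.85 without and 5.05 with a counterpart. For Sin3a in Nanog + Sin3a cells the median fold in the segment was 3.74 without and 5.14 with a counterpart, against 3.60 and 5.14 on the rest of the genome.

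The −log10 q of the added peaks is set here beside that of peaks without counterpart over the whole lists. Added peaks are members because they passed in the lists whose surplus chose the segment, so their strength is a description and supports nothing further. A −log10 q of 10 or more was reached by 26 of the 106 added FLAG peaks, 24.5%, against 17.8% of such peaks over the whole list, and a value of 5 or more by 67, 63.2% against 60.8%. For the 40 added Sin3a peaks, 4 reached 10, which is 10.0% against 4% over the whole list, and 20 reached 5, which is 50% against 41.2%. The strongest added Sin3a peak had a −log10 q of 13.4, so 0 of the 40 reached 25, against 0.028% over the whole list.

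The peaks of the lines with 1 transgene that did have a counterpart here were a little lower than elsewhere. The 81 such FLAG peaks of Nanog cells had a median fold of 4.60 in the segment and 5.52 on the rest of the genome. The 36 such Sin3a peaks of Sin3a cells had a median fold of 4.42 in the segment and 5.09 on the rest of the genome. A larger share of peaks had a counterpart in the segment, so the sets compared differ in make-up. Over all peaks, with or without counterpart, the medians lay closer. They were 4.54 in the segment and 4.75 on the rest of the genome for FLAG in Nanog cells, and 4.42 and 4.72 for Sin3a in Sin3a cells.

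The share of FLAG peaks that lay at a Sin3a peak was lower in the segment than over the whole lists. Of the Sin3a lists, only that of Sin3a cells had a clearly lower share at FLAG peaks. In Nanog + Sin3a cells 63 of 184 FLAG peaks shared a base with a Sin3a peak, 34.2% (27.8 to 41.4), against 42.2% over that whole list. In Nanog cells 27 of 88 FLAG peaks shared a base with a Sin3a peak of Sin3a cells, 30.7% against 41.8%. The added FLAG peaks of Nanog + Sin3a cells did so at 18 of 106, 17.0%, and those with a counterpart at 45 of 78, 57.7%, against 7.79% and 51% on the rest of the genome. Neither of these shares was below that of the rest of the genome. The lower share over all 184 peaks thus went with the larger part of added peaks, for which the segment was chosen. Of the Sin3a peaks of Nanog + Sin3a cells 64 of 75 lay at a FLAG peak of those cells, 85.3% (75.6 to 91.6). This interval includes the 80.3% over that whole list. Of the Sin3a peaks of Sin3a cells 26 of 37 lay at a FLAG peak of Nanog cells, 70.3% (54.2 to 82.5) against 88.5%.

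Most sites that both lines held were also higher in Nanog + Sin3a cells. For FLAG, 72 peaks paired one to one between the lines, and their fold in Nanog + Sin3a cells over that in Nanog cells had a median of 1.35 (95% order-statistic interval 1.28 to 1.44), against 0.912 for 25827 pairs on the rest of the genome. The fold was higher in Nanog + Sin3a cells at 67 of 72 pairs, 93.1% against 35.3% over all pairs. The ratio lay between 0.737 and 2.21, and 71 of the 72 lay above the median of the rest of the genome. For Sin3a, 34 pairs had a median ratio of 1.26 (1.19 to 1.33), with a range of 0.692 to 1.74, against 0.997 on the rest of the genome. The Sin3a fold was higher in Nanog + Sin3a cells at 28 of 34 pairs, 82.4% against 49.6% over all pairs.

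**Figure D3:**
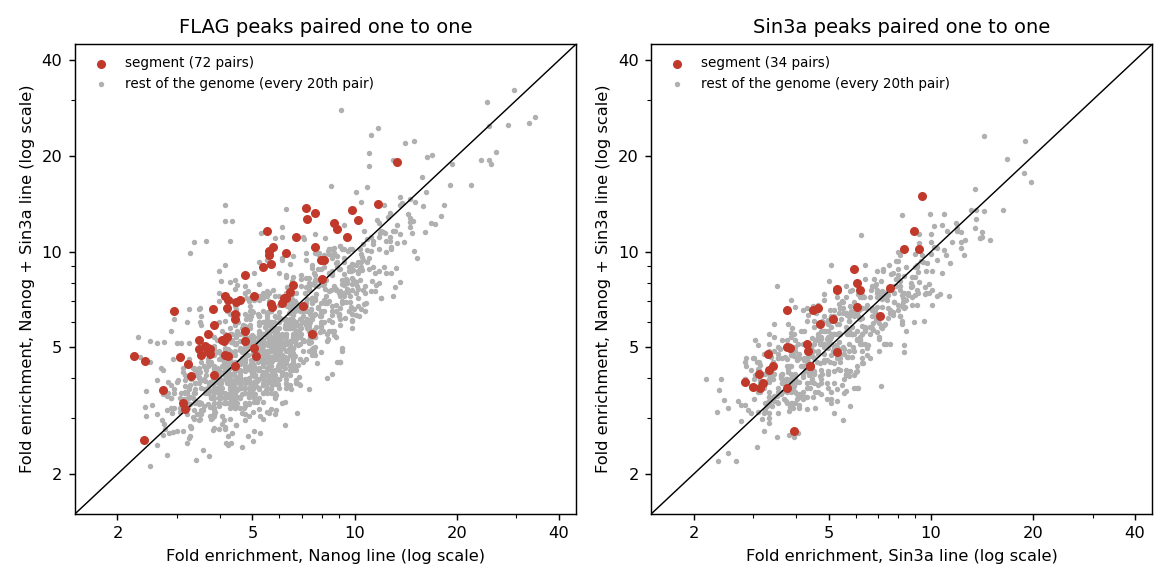
Authors' fold in Nanog + Sin3a cells (y axis, log scale) against the fold in the other line (x axis, log scale) for one-to-one pairs of peaks, FLAG and Sin3a in separate panels; coloured points are pairs of the segment, grey points every 20th pair of the rest of the genome, and the line marks equal folds. The segment's pairs lie above the line at 67 of 72 pairs for FLAG and at 28 of 34 for Sin3a.

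Weak and strong pairs were both higher in Nanog + Sin3a cells. Pairs were split by the fold in Nanog cells, which is also the denominator of the ratio, so split and ratio are tied. Each class is therefore set beside the same class on the rest of the genome. The median FLAG ratio was 1.36 for the 38 pairs with a fold under 5 in Nanog cells and 1.28 for the 34 pairs at or above it, against 1.01 and 0.856 for the same classes on the rest of the genome. Summed over the 72 FLAG pairs, 4488 fragments in Nanog + Sin3a cells and 2761 in Nanog cells stood over the summits, which after the scaling of each list is 3282 against 2395, a ratio of 1.37. On the rest of the genome this ratio was 0.948. In the segment the ratio of sums was 1.37 for the weaker and 1.37 for the stronger pairs. It was also 1.37 both for the 42 pairs that lay at a Sin3a peak of Nanog + Sin3a cells and for the 30 that did not. On the rest of the genome it was 1.06 for the weaker and 0.909 for the stronger pairs, and 0.876 with and 1.03 without a Sin3a peak. Equal sums in the segment thus stood beside unequal ones in the matching classes of the rest. The median FLAG ratio in the segment was 1.39 with and 1.31 without a Sin3a peak, against 0.865 and 0.971 on the rest of the genome. For Sin3a the scaled sums over 34 pairs were 1359 in Nanog + Sin3a cells and 1157 in Sin3a cells, a ratio of 1.17, against 0.932 on the rest of the genome. Set over the rest of the genome, the scaled sums of the segment's pairs were thus 1.45 times as high for FLAG and 1.26 times as high for Sin3a.

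Taken over the floor of each list, the background against which peaks were called differed little between the lists. The floors themselves ran from 4.68 for FLAG in Nanog cells to 5.41 for Sin3a in Sin3a cells. The series has 1 input and 1 IgG sample, with no line named, and the control used is not stated. The background therefore cannot show whether lines differed in DNA copies. The median local background at the summits in the segment, over its floor in each list, was 1.04 for FLAG in Nanog + Sin3a cells, 1.00 for FLAG in Nanog cells, and 1.00 for Sin3a in Nanog + Sin3a cells and in Sin3a cells. On the rest of the genome it was 1.00 in all 4 lists.

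The median pair ratio was above 1 in every bin of the segment that held pairs. In the 1-Mb bins from the start, the median FLAG ratio was 1.31, 1.33, 1.40, 1.10, 1.42 and 1.42, over 24, 16, 17, 1, 11 and 3 pairs. The median Sin3a ratio was 1.19, 1.25 and 1.12 in the first 3 bins over 7, 10 and 5 pairs, and 1.30 and 1.25 in the last 2 bins over 10 and 2 pairs; the fourth bin held 0 Sin3a pairs. In the bins 1, 2 and 3 Mb before the segment the median FLAG ratio was 0.869, 0.677 and 0.835, and the median Sin3a ratio was 0.795, 0.869 and 0.844.

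**Figure D4:**
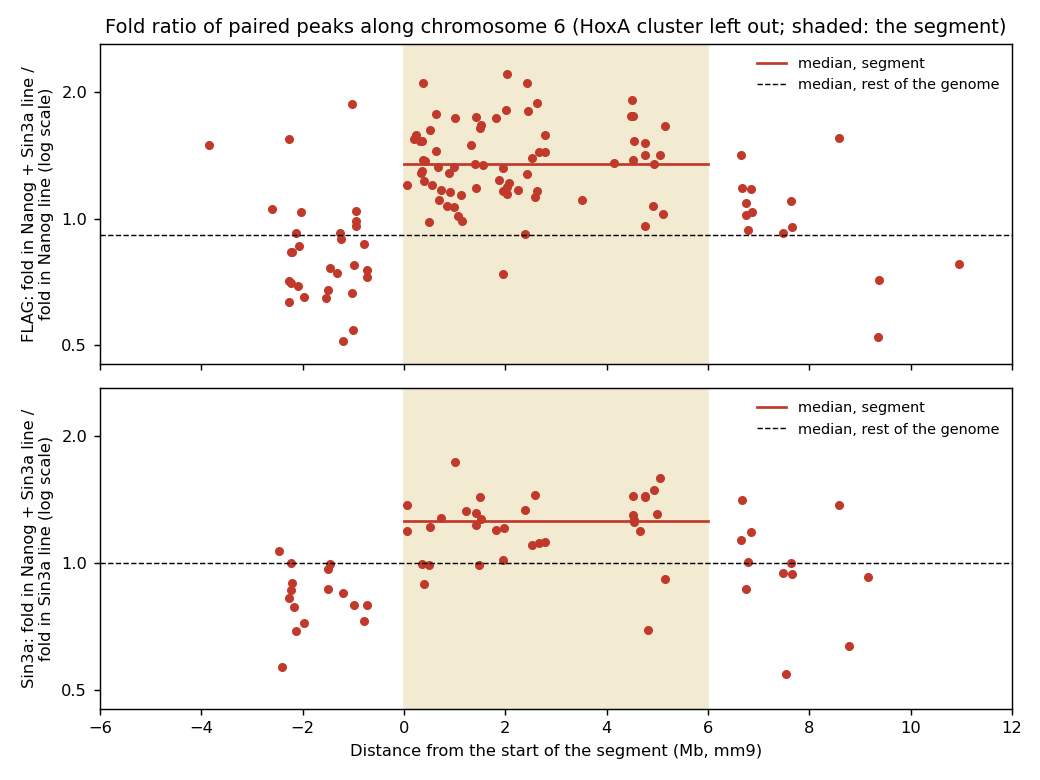
Fold in Nanog + Sin3a cells over that in the other line (y axis, log scale) for each one-to-one pair against its distance from the segment's start in Mb (x axis), FLAG and Sin3a in separate panels; dashed lines mark the median of the pairs on the rest of the genome, 0.912 for FLAG and 0.997 for Sin3a. Pairs before the start lie mostly below 1, and those between 0 and 6 Mb lie mostly above it.

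At the start of the segment the nearest pairs on either side differed, though single pairs did not all follow. The side before the start was itself low. Over those 6 Mb the median ratio was 0.806 for FLAG and 0.836 for Sin3a, against 0.912 and 0.997 on the rest of the genome. The step at the start is therefore larger than the difference between the segment and the rest of the genome. In the bin before the start 1 of 7 FLAG pairs and 0 of 3 Sin3a pairs had a ratio above 1. In the first bin inside 23 of 24 FLAG pairs and 4 of 7 Sin3a pairs did. FLAG ratios in the 6 Mb before the start ran up to 1.88. The last FLAG pair before it, at chr6:49268942-49269701, had folds of 8.21 in Nanog + Sin3a cells and 10.9 in Nanog cells, a ratio of 0.76. The first inside, at chr6:50062594-50063289, had a ratio of 1.20. For Sin3a the last peak before the start had a fold of 7.94 in Nanog + Sin3a cells and 9.99 in Sin3a cells, and the first pair inside had 5.14 in Nanog + Sin3a cells and 4.31 in Sin3a cells. The last FLAG peak of Nanog + Sin3a cells before the start, chr6:49604790-49605081, had a fold of 3.69 and no counterpart.

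At the end of the segment the first pairs outside still had the higher fold in Nanog + Sin3a cells. The last FLAG pair inside, at chr6:55153179-55153972, had a ratio of 1.66, and the first after the end, at chr6:56654489-56654857, still had folds of 8.04 in Nanog + Sin3a cells and 5.67 in Nanog cells, a ratio of 1.42. For Sin3a, the last pair inside had folds of 4.85 in Nanog + Sin3a cells and 5.29 in Sin3a cells, and the first after the end had 13.8 in Nanog + Sin3a cells and 12.2 in Sin3a cells. In the bin just after the end the median FLAG ratio was 1.09 over 7 pairs, 6 of them above 1, and the median Sin3a ratio was 1.14. In the next bin the medians were 0.953 for FLAG and 0.944 for Sin3a. The last FLAG peak of Nanog + Sin3a cells inside the segment, chr6:55461870-55462102, had a fold of 4.49 and no counterpart.

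Added sites lay at distances from the sites of the other lines that were near those found genome-wide. Of the 104 added regions, 57 lay within 10 kb of a region of Nanog or Sin3a cells, 54.8% against 52.6% of such regions genome-wide. The median distance was 8.71 kb in the segment and 8.77 kb on the rest of the genome.

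Peaks of the segment were grouped in stretches in which neighbouring regions lay at most 20 kb apart. Of 70 such stretches, 30 were single regions and 40 held the other 167. Added regions were present in 53 stretches, and 23 stretches held nothing else. Stretches were not counted on the rest of the genome, so these numbers do not show whether the grouping is particular to the segment. The stretches described next were picked after their values were seen, as those with most regions. The first of them, at chr6:50323690-50379684, held 12 regions, 5 of them added; all 12 had a FLAG peak of Nanog + Sin3a cells and 7 a FLAG peak of Nanog cells, while 2 had a Sin3a peak of Nanog + Sin3a cells and 1 of Sin3a cells.

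The next 2 chains differed in which antibody marked them. At chr6:50945180-50986921, 8 of 11 regions were added, 10 had a FLAG peak of Nanog + Sin3a cells, 3 a FLAG peak of Nanog cells and 0 a Sin3a peak of either line. At chr6:51408320-51436023, 7 of 10 regions were added, and 7 had a FLAG peak and 7 a Sin3a peak of Nanog + Sin3a cells, against 3 with a FLAG peak of Nanog cells and 2 with a Sin3a peak of Sin3a cells. Its core, chr6:51417594-51420529, was held by all 4 lists, with FLAG folds of 9.75 in Nanog + Sin3a cells and 5.60 in Nanog cells and Sin3a folds of 7.95 in Nanog + Sin3a cells and 6.04 in Sin3a cells. The added regions around it had folds of 4.36 or less.

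To place the segment in the genome, the rest of the genome was divided into tiles of 6 Mb, of which 326 held at least 10 pairs with each antibody. The FLAG pair ratio of the segment, 1.35, stood above all of them, whose medians lay between 0.780 and 1.08. Of the 327 tiles with the segment among them, 17 had a median FLAG ratio above 1, which is 5.2%. The FLAG count ratio of the segment, 2.09, also stood above that of each of the other tiles, the highest of which was 1.65. Since the segment was chosen for this excess, its rank is a description.

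With Sin3a the segment was not alone. Its pair ratio of 1.26 was reached or passed by 3 of the 326 other tiles, and 164 of 327 tiles, 50.2%, had a median above 1. The highest Sin3a pair ratio, 1.51, was that of the tile from 128 to 134 Mb of the same chromosome, whose FLAG ratio was 0.922. That tile touches the distal stretch of chromosome 6 from 120 to 130 Mb, where the Sin3a lists held 297 peaks in Nanog + Sin3a cells and 146 in Sin3a cells, and the FLAG lists 402 in Nanog + Sin3a cells and 460 in Nanog cells. In this distal stretch Nanog + Sin3a cells thus had the higher number with Sin3a and the lower number with FLAG, and in the segment the higher number with both. The distal FLAG count ratio, 0.874 (0.763 to 1.00), was near the 0.940 on the rest of the genome. The distal Sin3a count ratio was 2.03, against 1.06 on the rest.

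**Figure D5:**
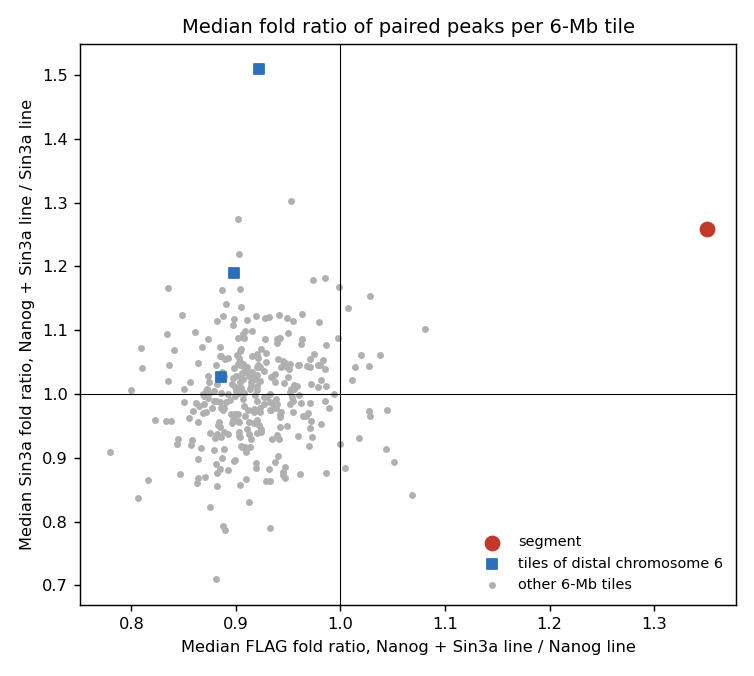
Median Sin3a pair ratio (y axis) against median FLAG pair ratio (x axis) of each 6-Mb tile with at least 10 pairs of both antibodies, with the segment, the tiles of distal chromosome 6 and the other tiles marked apart. The segment stands at 1.35 for FLAG and 1.26 for Sin3a, to the right of every other tile.

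The peaks were not assigned to genes, because the files are in mm9 and the available gene table is in a later build.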

How the data were processed

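The 10 samples were 8 ChIP samples in 4 groups, grouped by the sample descriptions, and 1 input and 1 IgG sample, which were not analysed here. Reads were processed on build mm9 with SAMtools 0.1.19, Bowtie 1.0.0 and FastQC 0.10.1, per the submitters' processing notes, with no role or order given. No peak caller and no pooling of replicates is named in them or in the labels. Each group has 1 deposited peak list, used as 1 value per group.

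The deposited score equals 10 times the deposited −log10 q, without decimals, in every row of the 4 lists. The deposited fold is the authors' ratio of scaled ChIP pileup to local background at the summit, both raised by 1, as worked out from the numbers. The deposited −log10 p was used with the fold to recover the whole number of fragments over each summit before scaling; exactly 1 number came out for 99.6% of peaks in the list with the lowest share, within a tolerance of 0.004 on the pileup. Pileups were scaled by the authors by 0.731 and 0.868 for FLAG in Nanog + Sin3a and Nanog cells, and by 0.772 and 0.700 for Sin3a in Nanog + Sin3a and Sin3a cells. The sources give no read totals, so precision is known only from these fragment numbers, and duplicates cannot be seen.

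Peaks overlapped when they shared at least 1 base, and pairs were peaks that overlapped 1 peak of the other list only, both ways. Regions merged the peaks of the 4 lists. Shares carry 95% Wilson intervals, count ratios exact binomial ones, medians of ratios order-statistic ones and fragments exact Poisson ones. The named regions were, by mean −log10 q, the first 6 of the classes in all 4 lists, FLAG of both lines, both lists of Nanog + Sin3a cells and their Sin3a list alone, 8 of their FLAG list alone, 2 of every other class, and the peaks at the segment's limits. No test was run. The members and lists were chosen with earlier results of these data known. Alternatives were other overlaps, a minimum −log10 q of 5 or 10, equal list lengths, other measures of strength and other limits. The overlap step, tested on simulated data, found 3000 of 3000 shared peaks, and the fragment step gave 1 number for 99.6% of 14532 simulated peaks and a wrong number for 0. The tools were scipy 1.17.1, matplotlib 3.10.9, pandas 2.3.3 and numpy 2.4.6 under Python 3.11.15. Coordinates are 1-based, in mm9; no genome of that build was used, and no sequence is shown. The order of the genes around the segment is not reported here.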

Additional observations from a re-analysis of the deposited data

How the results depend on the processing

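A shift was counted where a share or ratio left the interval of the value reported, or where the number of added regions changed by over 1.5 times. By this measure 6 of 41 alternatives shifted a value, 35 did not and 0 turned it round. In all 41 the segment's value was above that of the rest of the genome. All 41 draw on the same lists, and the segment was chosen for its surplus of peaks in them. For counts, added shares and added regions a value above the rest was therefore largely fixed by that choice. The pair ratios measure peaks of the same lists again. The count of 41 is thus a description and no independent support. The share of FLAG peaks of Nanog + Sin3a cells without counterpart ran from 54.6 to 62.5% and the FLAG count ratio from 2.04 to 2.32. The Sin3a count ratio ran from 1.69 to 1.95. The lowest, with a −log10 q of at least 10, had a wide interval of 0.877 to 3.35, reaching below 1. Such intervals cover counting error only, and on counts for which the segment was chosen they are no test. Merging peaks within 1 kb left 72 of 156 regions, 46.2%, in Nanog + Sin3a cells only. With −log10 q in place of the fold, the median pair ratio was 1.91 for FLAG and 1.45 for Sin3a, against 0.830 and 0.932 on the rest of the genome. With scaled fragments in place of the fold, the Sin3a pair ratio was 1.16, against 0.939 on the rest of the genome. At a −log10 q of at least 10 the share of Sin3a peaks without counterpart was 40.7%, against 15.3% on the rest of the genome, and 46 of 90 regions held peaks of Nanog + Sin3a cells only. From 51 to 55 Mb alone, 68 of 126 regions did. The alternatives with fewer peaks or a shorter segment hold fewer regions by construction. A ratio of −log10 q is on another scale than a ratio of folds, so its shift out of the fold interval goes with the change of measure. The cause of the other shifts was not tested here. No paired analysis was possible because every group came with a single list, and no replicate could be left out for the same reason. With 1 list per group, the depth behind a peak, a median of 33 fragments over the summit for the added FLAG peaks, limits what a missing counterpart can show.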
